A study of Mus musculus with 9 samples.

Results

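Macrophages are the main tissue phagocytes of the heart. They engulf dying cells and debris through scavenger, Fc and apoptotic-cell receptors, signal through small adaptor proteins, and depend on colony-stimulating factor 1 (CSF1) for survival. In the unstressed mouse heart most are long-lived resident cells, recognised by markers such as LYVE1, TIM4, FOLR2, CD163 and the mannose receptor MRC1, and circulating monocytes can add further macrophages after injury. Here 45 macrophage and phagocyte genes were followed in the left ventricle under pressure overload. They were picked by name as markers of identity, uptake and activation, and all 45 were found among the 18193 genes that the array annotation names by a single symbol. Of these, 5 are resident markers (Lyve1, Folr2, Timd4, Cd163 and Mrc1) and 40 are other phagocyte genes.

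The hearts came from male C57BL/6 mice. One group had its aorta narrowed surgically (TAC, transaortic constriction, which raises the load on the left ventricle, 4 arrays) and the other had sham surgery (5 arrays). Ventricular RNA was taken at 6 weeks. The labels name no genotype or drug for either group and do not give the animals' age or any pooling. The tissue is whole left ventricle, so a gene's level mixes all its cell types, and fewer cells of a type cannot be told apart from less RNA per cell. Cardiomyocyte genes such as Myh6, Tnnt2 and Actc1 were bright on all arrays, with a mean over 8 such genes between 14.15 and 14.26.

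Values are log2 expression values made with RMA, 1 per probe set, and the brightest probe set stands for its gene. Each difference is the TAC mean minus the sham mean, in log2 units, where 1 equals a 2-fold difference, with the standard error (SE) of a limma fit over all 18193 genes and adjusted p-values over all of them. A gene is said to have risen or fallen when its adjusted p was below 0.05. By that rule 12.8% of all genes rose (2333 genes) and 12.3% fell (2232 genes). When each array was first centred on the median of its genes, 1978 rose and 2907 fell. The labels do not say that each array is a separate animal, so p-values measure the spread between these arrays.

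Among the sham arrays, replicate 2 was unlike the rest, and this bears on most of the phagocyte genes. It held the lowest sham value for 32 of the 45 genes, against 36.8% of all genes. The mean of the 40 non-resident genes on that array lay 0.34 below the sham mean, while the other 4 sham arrays lay between 0.01 and 0.15 above it. Its low values made most of the differences, and the spread within sham, larger. As a measure of RNA degradation, the signal near the 3' end of actin and GAPDH was set against that near the 5' end, and the mean difference was 0.90 on sham replicate 2, against 0.92 to 1.16 on the other sham arrays and 0.90 to 0.93 in TAC. The counts of the 45 genes, and the differences of some of them, are therefore given with and without this array.

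Of the 45 genes 29 rose and 2 fell after TAC, and 14 did not pass the threshold. The median difference was 0.50, against -0.00 over all genes. Without sham replicate 2, where 13.1% of all genes rose and 13.9% fell, 31 rose and 2 fell, and the median was 0.43. All 31 genes called with the array were also called without it, and Irf8 and Cd68 were added. In 30 genes every TAC array lay above every sham array, as it did for 13% of all genes. In 1 gene, Retnla, every TAC array lay below, as it did for 12.2% of all genes. Only 5 of the 29 rises reached 2-fold: Lgals3, Fcgr1, Cx3cr1, Ms4a6d and Ms4a7.

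**Figure D1:**
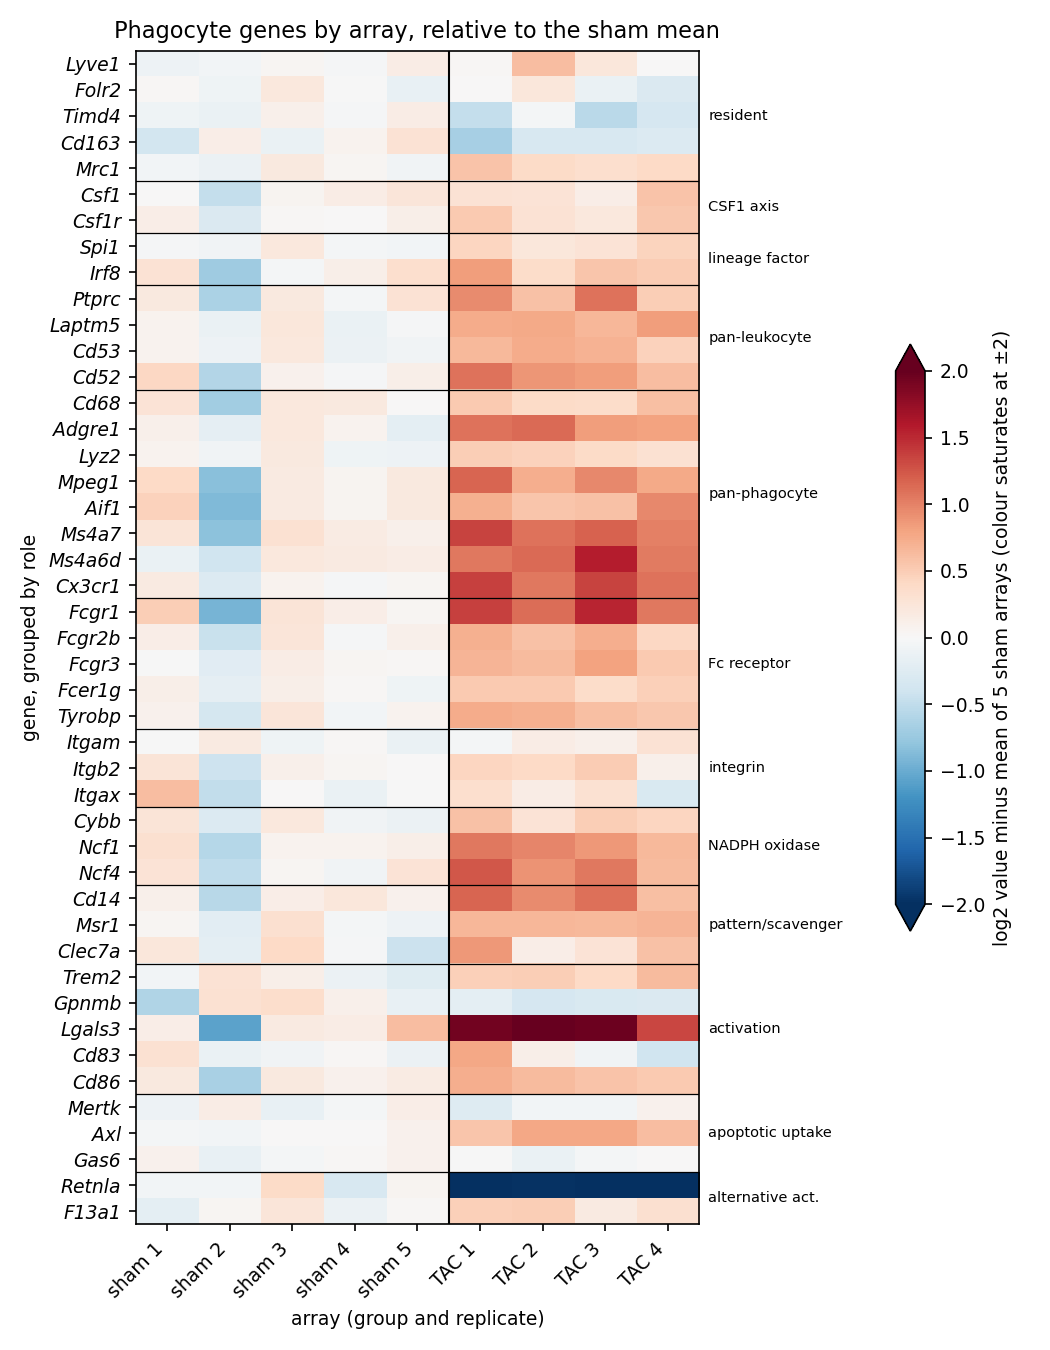
Each row is a gene, grouped by role, and each column an array; colour gives the log2 value minus the mean of the 5 sham arrays, and saturates at 2 in either direction. The TAC columns are red for most genes outside the resident group, Retnla is dark blue in all 4 TAC arrays, and sham replicate 2 is bluer than the other sham arrays.

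The resident markers moved in different directions, and the 40 other genes mostly rose. Among the 5 resident markers 1 rose, 1 fell and 3 did not pass, with a median difference of -0.05. Among the 40 others 28 rose, 1 fell and 11 did not pass, with a median of 0.61. Averaged over the resident markers, the TAC arrays lay -0.11, 0.17, -0.09 and -0.09 from the sham mean, and the sham arrays spanned -0.11 to 0.09. Averaged over the other 40, the TAC arrays lay 0.64, 0.52, 0.55 and 0.45 above the sham mean and the sham arrays spanned -0.34 to 0.15. The resident averages of the groups overlapped and the averages of the other genes did not. Without sham replicate 2 the resident medians and counts were -0.07, with 1 risen and 1 fallen, and those of the others 0.49, with 30 risen and 1 fallen. The lists were not tested against each other.

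Mrc1, the mannose receptor of macrophages (CD206), was the resident marker that rose. Its sham values were 9.95, 9.88, 10.20, 10.05 and 9.93 and its TAC values 10.58, 10.39, 10.33 and 10.40. All 4 TAC arrays lay above all sham arrays. The difference was 0.42 (SE 0.08, limma adjusted p = 0.00417), or 1.34-fold, and it passed on leaving out each of the 9 arrays.

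Timd4, which encodes TIM4, a phosphatidylserine receptor of self-renewing resident macrophages, fell. The sham arrays read 7.08, 7.02, 7.26, 7.13 and 7.30, and the TAC arrays 6.68, 7.12, 6.61 and 6.83. TAC replicate 2 lay within the sham range and the other 3 TAC arrays below it. The fall of 0.35 (SE 0.11, limma adjusted p = 0.0390) passed on only 3 of 9 omissions of an array, and without TAC replicate 3 its adjusted p was 0.120. With all arrays it did not pass when adjusted over all probe sets (adjusted p = 0.0536) or with limma's trend and robust options.

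Cd163, the haemoglobin scavenger receptor, stood at 9.70, 10.18, 9.93, 10.13 and 10.35 in sham and at 9.39, 9.74, 9.74 and 9.79 in TAC. TAC replicates 2, 3 and 4 lay just above the lowest sham array, so the groups overlapped. The difference was -0.40 (SE 0.14, limma adjusted p = 0.0564). It passed without sham replicate 1, at -0.49 (adjusted p = 0.0153), but on none of the other 8 omissions. With all arrays it passed when they were centred on their medians, at -0.45 (adjusted p = 0.0407), with array weights (0.0287), with limma's trend and robust options (0.0311) and among genes above the median level (0.0311).

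Folr2, which encodes a folate receptor of resident macrophages, had sham values of 9.34, 9.23, 9.53, 9.31 and 9.16 and TAC values of 9.31, 9.54, 9.19 and 9.03. The groups overlapped throughout, and the difference was -0.05, with 95% confidence limits of -0.29 and 0.20 (limma adjusted p = 0.817). Lyve1, a hyaluronan receptor, stood at 8.88, 8.92, 9.01, 8.95 and 9.12 in sham and at 9.01, 9.59, 9.21 and 8.99 in TAC. Its difference of 0.22 (SE 0.12, adjusted p = 0.219 in limma) was smaller, at 0.09, without TAC replicate 2. Its other probe set differed by -0.00.

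Lyve1 is also a marker of lymphatic vessels, and most other lymphatic genes measured, but not Prox1, rose with TAC. Of 5 measured lymphatic endothelial genes 4 rose: Pdpn by 1.41, Reln by 1.31, Mmrn1 by 0.70 and Flt4 by 0.38. Prox1 differed by -0.47 (limma adjusted p = 0.0708), and its other probe sets by -0.46 and -0.40, which did not pass. The list mean was 9.06 to 9.23 over the sham arrays and 9.66 to 9.89 over the TAC arrays. The part of lymphatic vessels in the Lyve1 value was not tested.

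**Figure D2:**
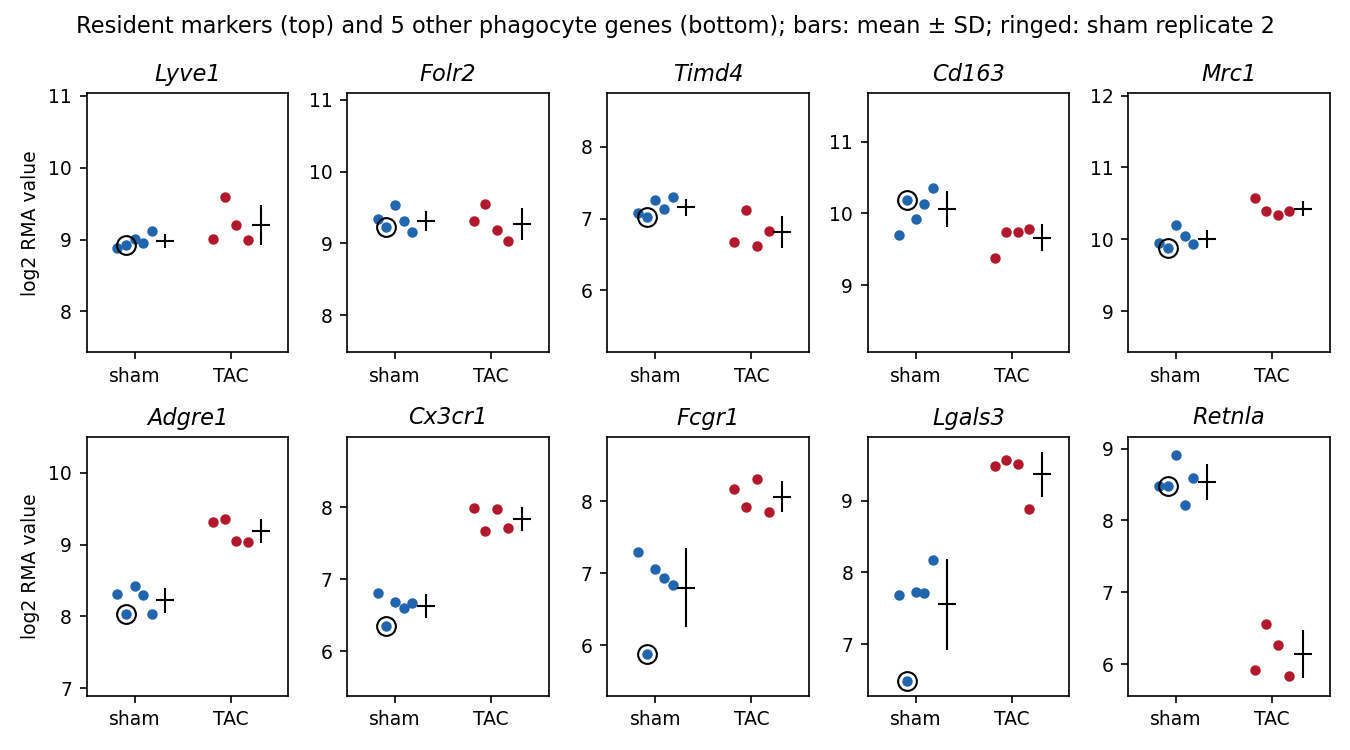
Log2 RMA values of the 5 resident markers (top row) and 5 other phagocyte genes (bottom row) in the 5 sham (blue) and 4 TAC (red) arrays; each panel spans the same range of 3.6 log2 units around its own centre, and bars are the mean ± SD. Mrc1 and the bottom row separate the groups, Lyve1, Folr2, Timd4 and Cd163 do not, and the ringed sham replicate 2 is far below the other sham arrays for Fcgr1 and Lgals3.

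CSF1 acts through the receptor tyrosine kinase encoded by Csf1r, which nearly all macrophages carry. Csf1r read 11.30, 10.87, 11.18, 11.17 and 11.28 in sham and 11.68, 11.45, 11.38 and 11.70 in TAC. The groups did not overlap, and the rise was 0.39 (SE 0.11, limma adjusted p = 0.0226), or 1.31-fold. Its other probe sets rose by 0.42 and 0.48. The call was lost without TAC replicate 1 (adjusted p = 0.0699) or TAC replicate 4 (adjusted p = 0.0621).

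The ligand gene Csf1 did not pass the threshold at its brightest probe set, with values of 9.24, 8.76, 9.29, 9.38 and 9.48 in sham and 9.52, 9.51, 9.36 and 9.81 in TAC. Its difference was 0.32 (SE 0.14, limma adjusted p = 0.145), and 0.20 without sham replicate 2. The mean of its 4 probe sets did rise, by 0.30 (adjusted p = 0.0225). Il34, the other ligand of the receptor, differed by 0.32 (adjusted p = 0.280).

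Among 9 measured genes of the colony-stimulating factor system other than Csf1 and Csf1r, 2 rose and 0 fell. They were Csf2rb, the beta chain shared by the GM-CSF, interleukin-3 and interleukin-5 receptors, and Csf2rb2, a beta chain of the interleukin-3 receptor alone. Csf2rb2 stood at 6.31, 5.60, 6.45, 6.00 and 5.76 in sham and at 8.25, 7.95, 9.07 and 7.91 in TAC, a rise of 2.27 (SE 0.25, limma adjusted p = 0.000123). Csf2rb rose by 1.46 (SE 0.25, adjusted p = 0.00177). Both genes separated the groups fully. They are near-identical copies, so their probe sets may share signal. Beside these 2 of 9 genes, 12.8% of all genes rose. The probe sets of Csf2ra, the GM-CSF-specific chain, disagreed: the brightest differed by -0.03 and did not pass, and the other, nearly as bright, rose by 0.63 (adjusted p over all probe sets = 0.0385). The granulocyte receptor Csf3r differed by -0.01 and did not pass.

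The lineage factor PU.1 is encoded by Spi1 and is needed to form macrophages. Spi1 values were 6.80, 6.76, 7.04, 6.79 and 6.77 in sham and 7.26, 7.06, 7.11 and 7.28 in TAC. Each TAC array was above each sham array, although TAC replicate 2 exceeded sham replicate 3 by little. The rise was 0.35 (SE 0.08, limma adjusted p = 0.0102), or 1.27-fold. Irf8, a partner of PU.1 in monocyte development, read 7.40, 6.40, 7.08, 7.23 and 7.45 in sham and 7.95, 7.48, 7.66 and 7.61 in TAC. Its difference of 0.57 (SE 0.20) did not pass (adjusted p = 0.0609), but without sham replicate 2 a smaller difference of 0.39 did (adjusted p = 0.0326).

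PU.1 binds purine-rich boxes with the letters GAGGAA, often close to the start sites of myeloid genes. Promoter windows were taken from RefSeq (build GRCm38.p6) for 32 of the 45 genes, and the 250 bases before each start were searched for GAGGAA on both strands. It was found in 41.0% of the 39 windows of these genes and in 23.3% of all 32851 windows. Within 100 bases of the start the shares were 30.8% and 9.82%. Some genes had several overlapping windows. The box lay within 100 bases for 8 of 19 genes that rose (Aif1, Cd53, F13a1, Fcgr1, Fcgr3, Laptm5, Mrc1 and Trem2) and for 2 of 13 that did not rise (Clec7a and Itgam). These matches describe letters only and show no binding. Shown 5' to 3' on the gene's strand, up to the base before the start, are 5 genes that rose and the integrin gene Itgam, which did not pass. Capitals mark the box, written as TTCCTC where it lies on the opposite strand.
Fcgr1 (chr3:96293970-96294049, minus strand): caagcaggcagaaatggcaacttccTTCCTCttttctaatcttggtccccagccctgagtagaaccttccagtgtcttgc
Cd53 (chr3:106790150-106790229, minus strand): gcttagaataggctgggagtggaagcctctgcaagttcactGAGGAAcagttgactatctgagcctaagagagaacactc
Laptm5 (chr4:130913236-130913315, plus strand): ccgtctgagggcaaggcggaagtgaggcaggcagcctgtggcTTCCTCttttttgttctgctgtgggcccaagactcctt
Trem2 (chr17:48346321-48346400, plus strand): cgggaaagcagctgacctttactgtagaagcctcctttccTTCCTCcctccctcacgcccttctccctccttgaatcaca
Mrc1 (chr2:14229334-14229413, plus strand): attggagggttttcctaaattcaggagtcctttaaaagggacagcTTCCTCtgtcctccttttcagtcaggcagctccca
Itgam (chr7:128062540-128062639, plus strand): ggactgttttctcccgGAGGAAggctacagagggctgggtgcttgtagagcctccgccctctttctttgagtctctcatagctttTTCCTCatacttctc

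All 4 pan-leukocyte genes rose. Ptprc, which encodes the CD45 phosphatase of all nucleated blood cells, rose by 0.78 (SE 0.19, limma adjusted p = 0.0138). The lysosomal protein gene Laptm5 rose by 0.75 (SE 0.09), the tetraspanin gene Cd53 by 0.64 (SE 0.09) and the surface glycoprotein gene Cd52 by 0.85 (SE 0.18), with adjusted p of 0.000166, 0.000541 and 0.00561. No TAC array overlapped the sham range in any of the 4. The dimmer probe set of Ptprc differed by 0.01, and the mean of its probe sets, at 0.40, did not pass (adjusted p = 0.0645). Laptm5 rose at 4 of its 5 probe sets. Laptm5's brightest probe set carries Affymetrix's mark for probes that can match other transcripts.

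Of the 8 pan-phagocyte genes 7 rose. Adgre1, the gene of the mouse macrophage marker F4/80, read 8.32, 8.04, 8.43, 8.29 and 8.03 in sham and 9.31, 9.36, 9.05 and 9.03 in TAC. The groups were well apart, and the rise of 0.97 (SE 0.11, limma adjusted p = 0.000139) was 1.96-fold and hardly smaller, at 0.92, without sham replicate 2. Lyz2, the lysozyme M gene of myeloid cells, rose by 0.41 (SE 0.08, adjusted p = 0.00356). Mpeg1, the pore-forming protein perforin-2, rose by 0.91 (SE 0.22, adjusted p = 0.0128), and by 0.70 without sham replicate 2.

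Cx3cr1, the fractalkine receptor of monocytes and macrophages, had sham values of 6.80, 6.36, 6.69, 6.60 and 6.67 and TAC values of 7.99, 7.67, 7.98 and 7.72. The gap between the groups was wider than either group's range, and the rise was 1.21 (SE 0.11, limma adjusted p = 2.87e-05), or 2.32-fold. The membrane-spanning 4A genes Ms4a6d and Ms4a7 rose by 1.20 (SE 0.15, adjusted p = 0.000281) and 1.16 (SE 0.21, adjusted p = 0.00255). Ms4a6d read 8.15, 7.88, 8.49, 8.46 and 8.43 in sham and 9.33, 9.42, 9.85 and 9.32 in TAC. Ms4a7 read 7.64, 6.55, 7.68, 7.54 and 7.48 in sham and 8.73, 8.47, 8.56 and 8.39 in TAC, with sham replicate 2 far below the rest. Without that array Ms4a7 rose by 0.95.

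Aif1 (IBA1, an actin-binding protein of macrophages) and Cd68 (a lysosomal glycoprotein used to stain them) depended more on sham replicate 2. Aif1 stood at 7.74, 6.40, 7.46, 7.34 and 7.47 in sham and at 7.998, 7.84, 7.87 and 8.23 in TAC. It rose by 0.70 (SE 0.23, limma adjusted p = 0.0484), and by 0.48 (adjusted p = 0.00978) without that array, but the call held on only 2 of 9 omissions. With all arrays Aif1 did not pass when adjusted over all probe sets (adjusted p = 0.0584). Cd68 stood at 8.42, 7.47, 8.36, 8.35 and 8.17 in sham and at 8.68, 8.54, 8.52 and 8.75 in TAC. Every TAC array was above every sham array, though by little. The difference of 0.47 (SE 0.18) did not pass (adjusted p = 0.0825), and without sham replicate 2 a difference of 0.30 did (adjusted p = 0.0229).

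**Figure D3:**
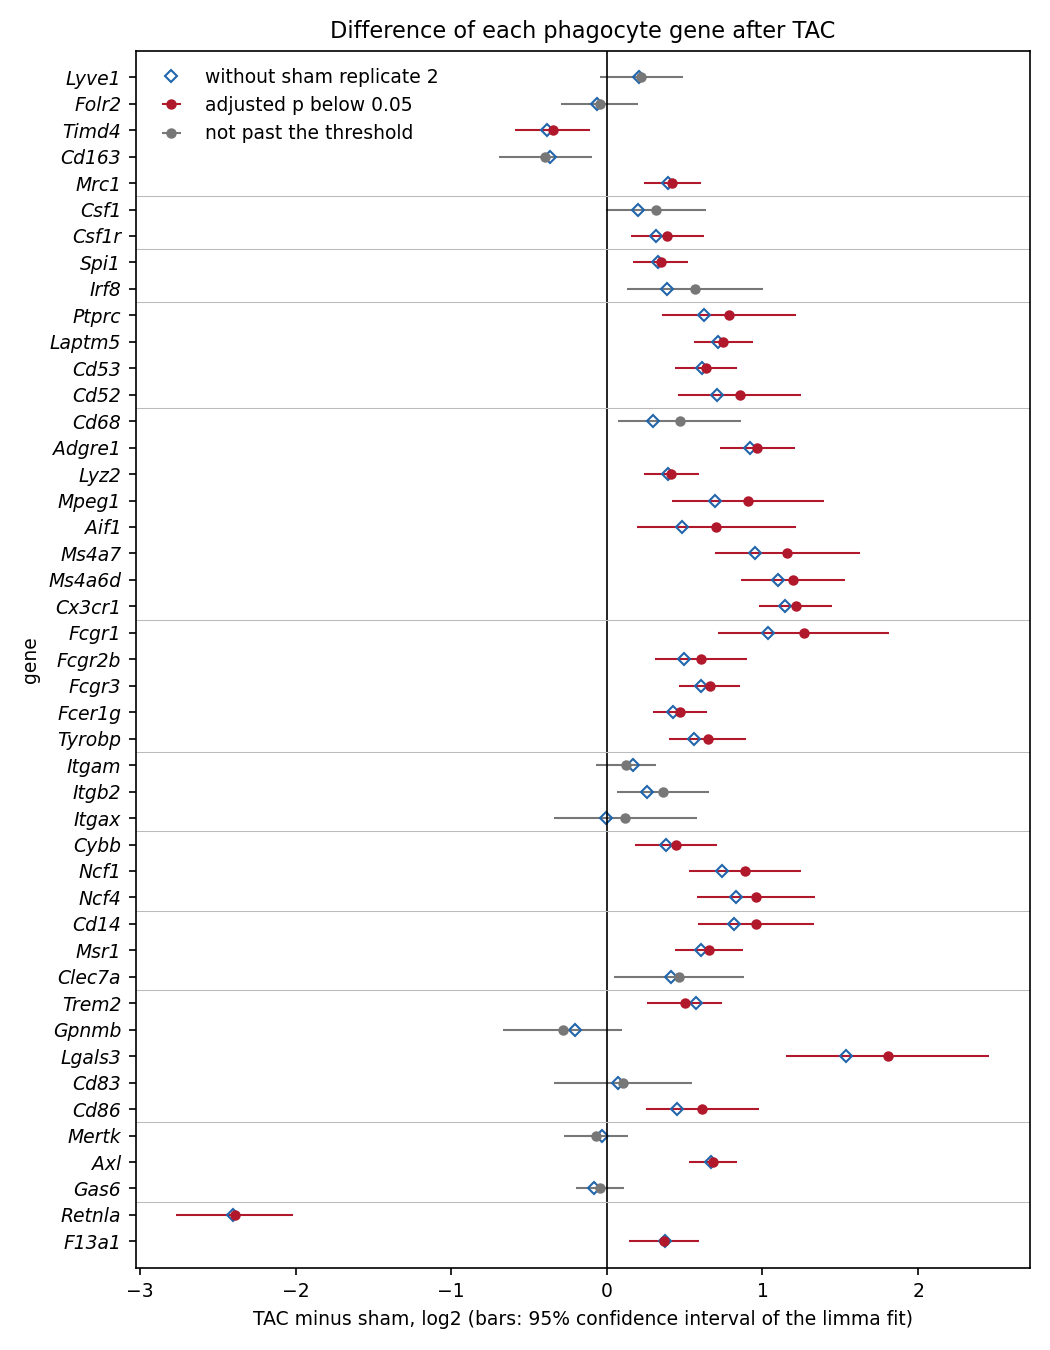
TAC minus sham difference (log2) of each of the 45 genes with its 95% confidence interval, red where the adjusted p was below 0.05 and grey otherwise; blue diamonds give the difference without sham replicate 2. Most intervals lie to the right of 0, Retnla lies far to the left at -2.39, and most diamonds lie closer to 0 than the circles.

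All 5 Fc receptor and adaptor genes rose. Fc receptors bind antibody-coated targets, FcRI (Fcgr1) and FcRIII (Fcgr3) activate the cell and FcRIIB (Fcgr2b) inhibits it. Fcgr1 read 7.29, 5.87, 7.06, 6.94 and 6.84 in sham and 8.17, 7.92, 8.32 and 7.85 in TAC. It rose by 1.26 (SE 0.25, limma adjusted p = 0.00397), or 2.40-fold, and by 1.03 without sham replicate 2, which lay far under the next sham array. Its other probe set rose by 0.61.

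Fcgr3 values were 9.59, 9.38, 9.76, 9.65 and 9.63 in sham and 10.29, 10.23, 10.41 and 10.12 in TAC, a rise of 0.66 (SE 0.09, limma adjusted p = 0.000402). Fcgr2b values were 9.05, 8.48, 9.16, 8.90 and 9.02 in sham and 9.63, 9.50, 9.65 and 9.33 in TAC, a rise of 0.61 (SE 0.13, adjusted p = 0.00743). The activating and the inhibitory receptor gene thus both rose, with confidence intervals of 0.47 to 0.86 and 0.31 to 0.90. Fcgr4, another activating receptor gene, was looked at after these values were seen and rose by 0.84 (SE 0.14, adjusted p = 0.00163).

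Fcer1g and Tyrobp (DAP12) encode the small signalling adaptors through which Fc receptors, TREM2 and related receptors act. Tyrobp stood at 9.47, 9.03, 9.62, 9.33 and 9.44 in sham and at 10.12, 10.10, 9.98 and 9.92 in TAC, a rise of 0.65 (SE 0.11, limma adjusted p = 0.00190). Fcer1g stood at 9.05, 8.75, 9.04, 8.94 and 8.84 in sham and at 9.44, 9.45, 9.29 and 9.40 in TAC, a rise of 0.47 (SE 0.08, adjusted p = 0.00159). Neither gene overlapped between the groups.

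Other genes act downstream of these adaptors or move the cytoskeleton. Of 20 such measured phagocyte signalling genes 10 rose, 0 fell and 10 did not pass. The plastin gene Lcp1, which bundles actin, rose by 0.89 (SE 0.12), the phospholipase gene Plcg2 by 1.18 (SE 0.23) and the inositol phosphatase gene Inpp5d (SHIP1) by 0.61 (SE 0.11). The other probe set of Inpp5d differed by 0.12 (adjusted p over all probe sets = 0.622). Without sham replicate 2 the counts were 11 risen and 2 fallen, Cyba among the latter.

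Integrin genes did not pass. Beta-2 integrins pair the Itgb2 chain (CD18) with Itgam (CD11b) or Itgax (CD11c) and bind complement-coated particles. Itgb2 read 7.40, 6.72, 7.22, 7.17 and 7.14 in sham and 7.56, 7.53, 7.64 and 7.23 in TAC, so that TAC replicate 4 lay inside the sham range. The difference was 0.36 (SE 0.13, limma adjusted p = 0.0767). Itgam and Itgax differed by 0.12 each, with intervals of -0.07 to 0.32 and -0.34 to 0.58. Both probe sets averaged below 5, under the array median of 6.5661, where differences on these arrays are hard to measure. At an unadjusted p below 0.05 the count was 1 of 3, and with limma's trend and robust options it was 0.

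The 3 members that encode subunits of the phagocyte NADPH oxidase, which makes superoxide to kill microbes, rose, and a further subunit gene, Cyba, did not. The catalytic membrane subunit gene Cybb rose by 0.44 (SE 0.12, limma adjusted p = 0.0190), a call lost without TAC replicate 1 (adjusted p = 0.0608) or TAC replicate 3 (adjusted p = 0.0552). The cytosolic subunit genes Ncf1 and Ncf4 rose by 0.89 (SE 0.16, adjusted p = 0.00272) and 0.96 (SE 0.17, adjusted p = 0.00240). Ncf4 stood at 6.80, 6.03, 6.57, 6.47 and 6.81 in sham and at 7.78, 7.43, 7.59 and 7.17 in TAC. Cyba, the small membrane subunit, which many other cells also express, differed by -0.30 (adjusted p = 0.0793), and without sham replicate 2 it fell by 0.38 (adjusted p = 0.0155), opposite to the other 3 subunit genes.

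Of the 3 pattern recognition and scavenger receptor genes 2 rose. Cd14, the lipopolysaccharide co-receptor, read 7.98, 7.32, 8.01, 8.11 and 7.95 in sham and 9.04, 8.82, 8.98 and 8.48 in TAC, a rise of 0.96 (SE 0.17, limma adjusted p = 0.00215). Msr1, the class A scavenger receptor that takes up modified lipoprotein, read 7.33, 7.07, 7.60, 7.24 and 7.18 in sham and 7.94, 7.94, 7.93 and 7.96 in TAC. It rose by 0.66 (SE 0.10, adjusted p = 0.000825), and the 4 TAC arrays were nearly equal. The beta-glucan receptor gene Clec7a (dectin-1) differed by 0.46 (SE 0.19, adjusted p = 0.104), with TAC replicates 2 and 3 inside the sham range.

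Activation genes were split. Lgals3, which encodes galectin-3, a secreted lectin of activated macrophages that fibroblasts and other cells also make, had the largest rise of the 45 genes. It read 7.69, 6.49, 7.73, 7.71 and 8.18 in sham and 9.49, 9.57, 9.51 and 8.89 in TAC. The groups were apart, with TAC replicate 4 lowest among the TAC arrays. The rise was 1.81 (SE 0.29, limma adjusted p = 0.00135), or 3.49-fold, and without sham replicate 2 it was 1.54, or 2.90-fold.

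Trem2, the lipid-sensing receptor of macrophages in damaged tissue, read 6.37, 6.72, 6.54, 6.31 and 6.18 in sham and 6.90, 6.92, 6.82 and 7.06 in TAC. It rose by 0.50 (SE 0.11, limma adjusted p = 0.00688), and sham replicate 2 was here the highest sham array. Its other probe set averaged below 5 and differed by 0.04. The co-stimulatory gene Cd86 rose by 0.61 (SE 0.16, adjusted p = 0.0201) and by 0.99 at its other probe set. Its call was lost without TAC replicate 1 (adjusted p = 0.0589) or TAC replicate 2 (adjusted p = 0.0507). Cd83, a marker of activated antigen-presenting cells, stood at 9.50, 9.06, 9.13, 9.22 and 9.09 in sham and at 9.97, 9.32, 9.13 and 8.81 in TAC. Its TAC arrays spanned more than the whole sham range, and the difference was 0.11 (adjusted p = 0.761).

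The probe sets of Gpnmb, a membrane glycoprotein of lipid-laden macrophages, disagreed. At the slightly brighter probe set the values were 6.13, 7.04, 7.08, 6.83 and 6.59 in sham and 6.54, 6.39, 6.42 and 6.44 in TAC, a difference of -0.28 (SE 0.17) that did not pass (limma adjusted p = 0.275). At the other they were 6.30, 5.50, 6.10, 6.14 and 6.15 in sham and 7.01, 6.99, 6.81 and 6.60 in TAC. There all TAC arrays lay above all sham arrays, and the rise was 0.81 (SE 0.16, adjusted p over all probe sets = 0.00461). No direction is given for Gpnmb.

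Apoptotic cells are taken up through the receptor kinases MERTK and AXL, which bind them by way of the bridging protein GAS6. Axl rose and the others did not pass. Axl read 9.99, 9.98, 10.04, 10.04 and 10.12 in sham and 10.59, 10.81, 10.80 and 10.66 in TAC, with a wide gap between the groups. The rise was 0.68 (SE 0.07, limma adjusted p = 7.10e-05), or 1.60-fold, and sham replicate 2 was no outlier for this gene. Mertk differed by -0.07 (adjusted p = 0.633, interval -0.28 to 0.13) and Gas6 by -0.05 (adjusted p = 0.701, interval -0.20 to 0.11).

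Of 12 other genes of apoptotic cell uptake 6 rose and 1 fell. The annexin gene Anxa1 rose by 1.25 (SE 0.09), the lipoprotein receptor gene Lrp1 by 1.00 (SE 0.09), the engulfment receptor gene Megf10 by 1.58 (SE 0.18) and Elmo1, which links receptors to actin, by 0.72 (SE 0.11). The next probe set of Elmo1, practically as bright, was not called, with a difference of 0.16 (adjusted p over all probe sets = 0.461). The gene that fell was Cd36, a scavenger receptor and fatty acid carrier that cardiomyocytes and vessel cells also express, by 0.28, and its other probe sets fell by 0.29 and 0.32. Axl, Gas6, Lgals3, Csf1, Anxa1 and Lrp1 are also expressed by fibroblasts. Of 9 fibroblast genes 6 rose, among them Postn by 3.28 and Col1a1 by 0.92, and Pdgfra, Tcf21 and Dpt did not pass. One of the dimmer probe sets of Pdgfra rose by 0.36 (adjusted p = 0.0489 among all probe sets). The mean of the fibroblast list was 10.76 to 11.11 over the sham arrays and 11.60 to 11.92 over the TAC arrays. The part of fibroblasts in the values of Axl and Lgals3 was not tested.

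The alternative activation genes went opposite ways. Retnla (RELM-alpha, FIZZ1), a secreted product of macrophages exposed to interleukin-4 or interleukin-13, read 8.48, 8.48, 8.91, 8.21 and 8.59 in sham and 5.92, 6.56, 6.26 and 5.84 in TAC. The lowest sham array, at 8.21, lay far above the highest TAC array, at 6.56. Retnla fell by 2.39 (SE 0.17, limma adjusted p = 9.15e-06), or 5.24-fold, the largest change in either direction among the 45 genes. Sham replicate 2 was close to the sham mean here, and without it the fall was 2.40. Retnla has only 1 probe set on the array.

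F13a1, the coagulation factor XIII A chain of monocytes and resident macrophages, read 10.08, 10.32, 10.51, 10.16 and 10.30 in sham and 10.74, 10.77, 10.45 and 10.59 in TAC. TAC replicate 3 lay below the highest sham array. The rise of 0.37 (SE 0.10, limma adjusted p = 0.0237) was lost without any 1 of 3 arrays, with an adjusted p of up to 0.0739 without TAC replicate 2. With the arrays centred on their medians the rise was 0.31 and did not pass (adjusted p = 0.0539).

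The Retnla promoter is shown because the gene moved against the other phagocyte genes. Signal transducers such as STAT6, which acts below interleukin-4, bind palindromes of the form TTCNNNNGAA. In the 250 bases before the start this form was present in 5.85% of all windows and in 17.9% of the 39 windows of these genes. They were windows of Cd53, Clec7a, Itgax, Lgals3, Ms4a7 and Retnla, of which Cd53, Lgals3 and Ms4a7 rose. Within 100 bases of the start the shares were 2.03% and 2.56%. Such matches show no binding, and their part in the fall of Retnla was not tested. In the stretch of the Retnla promoter from base 210 to base 121 before the start, capitals mark first a GAGGAA box on the opposite strand and then the TTCNNNNGAA match.
Retnla (chr16:48842399-48842488, plus strand, GRCm38.p6): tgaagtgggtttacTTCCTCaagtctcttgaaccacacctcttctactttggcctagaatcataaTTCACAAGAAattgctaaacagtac

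Other products of polarised macrophages were mostly not past the threshold. Of 10 measured inflammatory and alternative products 2 rose and 0 fell, where 12.8% of all genes rose and 12.3% fell. The interleukin-6 gene Il6 rose by 2.08 (SE 0.39, limma adjusted p = 0.00298) and the cyclooxygenase-2 gene Ptgs2 by 1.71 (SE 0.21, adjusted p = 0.000232), both of which fibroblasts and vessel cells also make. Il1b differed by 0.96 (adjusted p = 0.0509), with all TAC arrays above all sham arrays. Tnf (0.16), Nos2 (-0.08), Arg1 (-0.11) and Chil3 (0.06), which are common markers of inflammatory and alternative activation, did not pass. The probe sets of Tnf, Arg1 and Chil3 averaged 4.80, 4.72 and 3.60, and that of Nos2 averaged 6.00, under the array median of 6.5661. Differences at such levels are hard to measure on these arrays.

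Of 27 measured macrophage genes outside the 45, 13 rose and 2 fell. Those that rose included the lysosomal protease gene Ctss by 0.90 (SE 0.07, limma adjusted p = 1.95e-05), the endotoxin receptor gene Tlr4 by 1.10 (SE 0.12), Ms4a6b by 0.63 (SE 0.09) and the complement receptor gene Vsig4 by 1.60 (SE 0.27). Vsig4 read 6.09, 5.09, 6.05, 5.64 and 5.53 in sham and 7.70, 7.77, 7.06 and 6.60 in TAC. The groups did not overlap for Vsig4, and the TAC arrays were spread widely. The genes that fell were the lectin gene Clec10a, by 0.43 (SE 0.13, adjusted p = 0.0340, held on 4 of 9 omissions), and the liver X receptor gene Nr1h3, by 0.36 (SE 0.08, adjusted p = 0.00984).

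**Figure D4:**
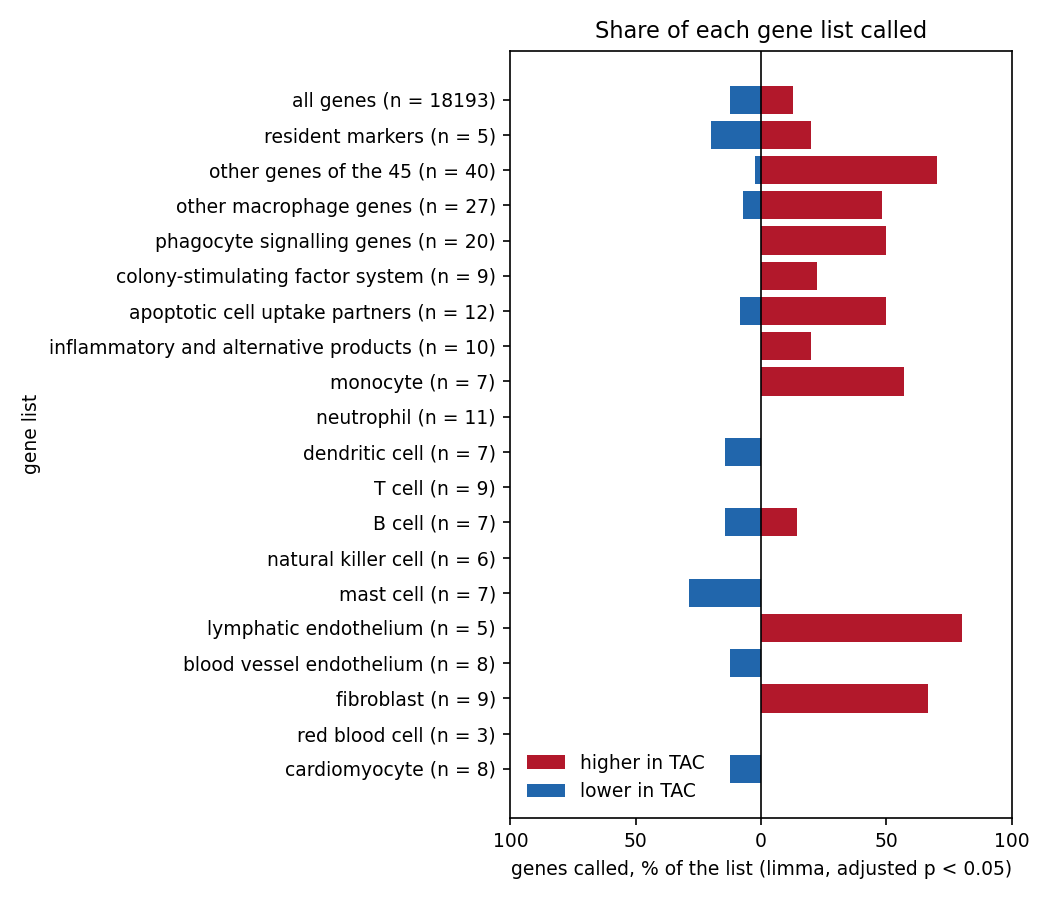
Share of each gene list called higher (red, right) and lower (blue, left) in TAC, in percent of the genes measured in the list, with all genes at the top. The bar of the 40 non-resident genes stands for 28 genes on the right and 1 on the left, the resident bar for 1 on each side, and the neutrophil, T cell and natural killer cell lists have no bar.

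Lists of other blood cells were read beside the phagocyte genes. Of 7 measured monocyte genes 4 rose and 0 fell: the chemokine receptor gene Ccr2 by 0.69 (SE 0.13, limma adjusted p = 0.00279), Vcan by 2.10, Fn1 by 1.71 and Ace by 1.45, of which the last 3 are also made by fibroblasts or vessel cells. Ccr2 read 7.34, 7.89, 7.85, 7.36 and 7.45 in sham and 8.38, 8.24, 8.24 and 8.22 in TAC, and sham replicate 2 was its highest sham array. Plac8 differed by 0.56 (adjusted p = 0.0748).

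Neutrophil genes gave 0 calls of 11, with 0 at an unadjusted p below 0.05 and 0 with the trend and robust options of limma. The list includes S100a8 and S100a9. Its Mpo, Elane, Cxcr2, Ngp, Camp and Mmp8 probe sets averaged below 5, where differences on these arrays are hard to measure. T cell genes gave 0 of 9 and natural killer cell genes 0 of 6, again with 0 and 0 by those counts. The measured T cell genes, and the natural killer cell genes except Prf1, averaged under the array median of 6.5661. Small differences could be missed at such levels. The smallest p-values in these lists were those of Mmp8 (-0.17) and Lcn2 (0.37), Cd3e (-0.17) and Il7r (-0.19), and Klrd1 (0.18) and Gzma (0.31). The mean levels overlapped between groups in each list, at 5.56 to 5.82 in sham and 5.54 to 5.84 in TAC for neutrophil genes.

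Among 7 B cell genes Blk rose by 0.48 and Ighm fell by 0.56, and among 7 dendritic cell genes Cd209a fell by 0.44 (SE 0.10, limma adjusted p = 0.00750). Cd209a averaged 4.24, a level where differences on these arrays are hard to measure. Blk lost its call without sham replicate 2 (adjusted p = 0.0794), and the mean of the Ighm probe sets differed by 0.01. Among 7 mast cell genes the protease genes Cma1 and Cpa3 fell by 0.50 and 0.32. Counts in these short lists stand beside 12.8% of all genes that rose and 12.3% that fell. Of 8 genes of blood vessel endothelium Kdr fell by 0.25, a call that held on 3 of 9 omissions of an array. Of 8 cardiomyocyte genes Tnni3 fell by 0.16, which held on 1 of 9. The mean of this list was 14.15 to 14.26, near the array maximum of 14.799. At dimmer probe sets Tnnt2 (-1.40), Ryr2 (-0.69), Myh6 (-0.50) and Pln (-0.21) fell. Their limma adjusted p over all probe sets was 0.000376, 0.0153, 0.00828 and 0.0374. Another dimmer probe set of Tnnt2 (-0.02), another of Pln (-0.27) and those of Ttn did not pass. Red blood cell genes gave 0 calls of 3, with 1 at an unadjusted p below 0.05 and 0 with the trend and robust fit, and the smallest p-values were those of Alas2 (-0.30) and Slc4a1 (-0.09).

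The probe sets of a gene were compared as a check. Of the 45 genes 25 had 1 probe set and 20 had several, with 34 probe sets besides the brightest. Of those 34, 29 had the same sign as the brightest, 15 rose and 0 fell over all probe sets in limma. Among the 21 that averaged at least 5, 12 rose, and among the 13 dimmer ones 3 rose. Of the 15 called genes with several probe sets, 9 were also called at another. For Msr1 and Ncf1 that other probe set averaged below 5. Brighter alternatives of Msr1 differed by 0.23 and 0.37 and did not pass, nor did a Fcgr2b probe set averaging 6.93, at 0.29. Genes seen only at the brightest probe set were Ptprc, Cd53, Ms4a7, Cx3cr1, Trem2 and Axl, and for these except Ptprc the other probe set averaged below 5. The brightest probe sets of Aif1, Ms4a6d, Fcgr2b and Trem2 carry Affymetrix's mark for probes shared by several transcripts. Among named genes outside the 45 that rose, Ms4a6b, Anxa1, Lrp1, Fn1 and Vcan also had a probe set averaging at least 5 that did not pass, with differences of 0.31, -0.09, 0.46 and 0.64 for the first 4 and of 0.01 and -0.15 at a pair of Vcan probe sets. So did Ms4a6c, with a difference of 0.32 (limma adjusted p over all probe sets = 0.146).

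**Figure D5:**
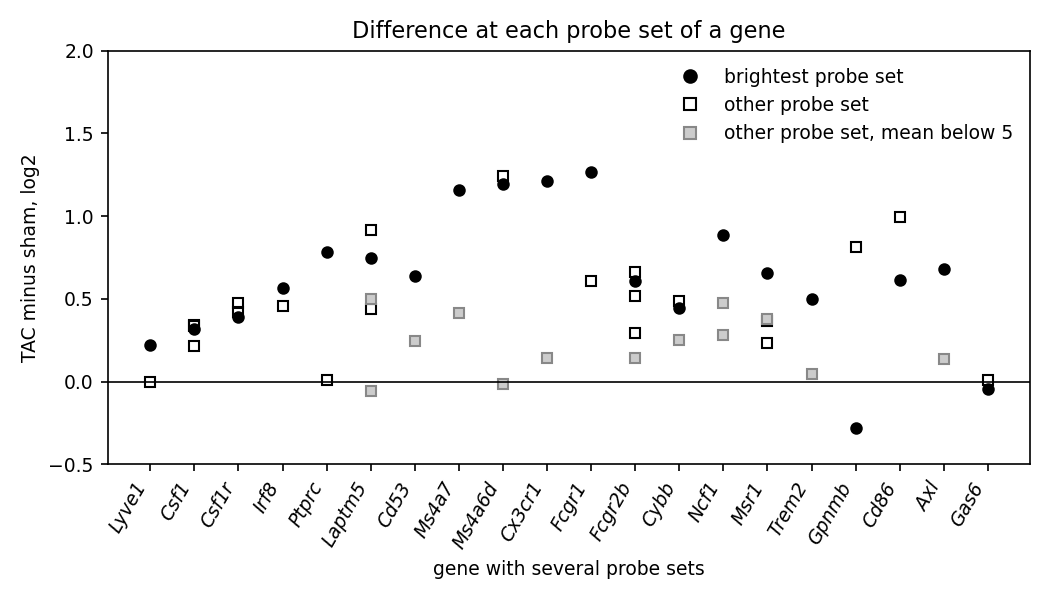
TAC minus sham difference (log2) at each probe set of the 20 genes that have several; filled circles are the brightest probe set, open squares the others, and grey squares others that average below 5. Most squares lie above 0 with the circle, grey squares lie nearer 0, and Gpnmb has its circle at -0.28 and its square at 0.81.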

How the data were processed

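Left ventricular RNA of 5 sham and 4 TAC samples was measured on Affymetrix mouse whole-genome arrays, and all 9 were used. The authors deposited 1 table of log2 values, made by RMA per the submitters' processing notes; the program that ran it, and its version, are not given in the sources used here. Sorted, the values were identical on all 9 arrays (2.2511 to 14.799, median 6.5661), so the arrays had been quantile normalized. No count stands behind these values, and the number of arrays limits the precision.

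Of 45101 probe sets 64 were controls, 34945 had 1 gene symbol in the GEO platform annotation, 932 had several and 9160 were not listed there. Probe sets with 1 symbol gave 18193 genes, each read at its brightest probe set by the mean of the 9 arrays. Genes were tested with limma 3.58.1 (R 4.3.3, lmFit and eBayes, TAC minus sham, two-sided, no covariate), adjusted over all genes by Benjamini-Hochberg and called below 0.05. The scripts were tested on simulated data. Tables and figures were made with Python 3.11.15, pandas 2.3.3 and matplotlib 3.10.9.

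All 45 members are named, and of each other list up to 4 called genes with the smallest p, or the 2 with the smallest p where none was called. Further genes (Fcgr4, Il34, Csf2ra, Csf3r, Cyba, Il1b, Tnf, Nos2, Arg1, Chil3, Clec10a, Nr1h3, Plac8, Prox1, Cd36, Pdgfra, Tcf21, Dpt, S100a8, S100a9 and the Ms4a family) were added after their values were seen. The members and lists were chosen with earlier results of these data known. Alternatives were the mean of probe sets, all probe sets, only genes above the median level, array weights, the trend and robust options of eBayes, median centring, cyclic loess, a threshold of 0.01 and leaving out each array. Replicate numbers follow the order of deposit and pair nothing. Promoters were matched by symbol to RefSeq windows (GRCm38.p6) of 250 bases before and 50 after each start.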

Additional observations from a re-analysis of the deposited data

Results flagged for a closer look

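In 176 groups of 4 or 5 arrays, each for 1 named gene, 16 had a highest or lowest array farther from its neighbour than Dixon's test at 95% allows, where chance gives about 1 group in 20. In 8 of the 16 the array was sham replicate 2 at the low end: Cd68 at 7.47, Mpeg1 at 7.18, Ms4a7 at 6.55, Ncf1 at 6.00, Cd14 at 7.32, Lgals3 at 6.49, Cd86 at 5.47 and Plcg2 at 6.89. The next lowest sham values of Cd68, Ms4a7 and Lgals3 were 8.17, 7.48 and 7.69. Without sham replicate 2 the differences of Cd14, Ncf1, Cd86 and Plcg2 were 0.82, 0.74, 0.45 and 0.95.

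The other 8 were spread over 5 arrays. Cd163 was low in TAC replicate 1, at 9.39 against 9.74 in the next array. Lgals3 was low in TAC replicate 4, at 8.89 against 9.49, and Arhgdib in TAC replicate 3, at 8.99 against 9.20. Spi1 was high in sham replicate 3 at 7.04, and Ccr2 in TAC replicate 1 at 8.38. Cd3e was low in sham replicate 4 at 5.39. Kdr and Tnni3 were high in TAC replicate 4, at 11.18 and 14.27.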

How the results depend on the processing

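Of the 45 genes 28 to 31 rose under the alternatives that kept all genes and the 0.05 threshold with all arrays, 24 to 31 on leaving out 1 array, and 21 at an adjusted p below 0.01. Among the 27 that lay above the median level 20 rose. The 2 falls depended more on the setting. Of all 45 genes 1 fell with all probe sets tested, 1 among genes above the median and 1 at 0.01, and 1 to 4 fell on leaving out an array. Of the 5 resident markers 0 fell with all probe sets or at 0.01, 2 fell with array weights or median centring, and 0 to 2 on leaving out an array. Of the 40 others 0 fell among genes above the median, where Retnla was not measured, and 1 to 2 on leaving out an array. The cause of these changes was not tested, apart from the smaller number of genes above the median. Median centring moved the median of all genes by -0.05. The mean of the Ighm probe sets differed by 0.011, in place of a fall. Of the 31 calls 25 held on every omission of an array, and those of Timd4, Csf1r, Aif1, Cybb, Cd86 and F13a1 did not. Dim probe sets such as those of Itgam and Itgax, below 5, limit what these arrays can show. No paired analysis was possible because the labels give the arrays no shared replicate numbers.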

Other observations

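The membrane-spanning 4A family, to which Ms4a7 and Ms4a6d belong, was looked at after the values of those members were seen. Of 17 measured family genes 5 rose and 0 fell in limma, where 12.8% of all genes rose and 12.3% fell. Ms4a6c read 7.22, 6.35, 7.02, 6.95 and 6.94 in sham and 7.46, 7.94, 7.61 and 7.51 in TAC, a rise of 0.73 (SE 0.17, adjusted p = 0.00916). Its dimmer probe set differed by 0.32 and did not pass. Ms4a4c read 5.46, 5.04, 5.51, 5.64 and 5.51 in sham and 6.28, 5.78, 6.04 and 5.67 in TAC, a rise of 0.51 (SE 0.15, adjusted p = 0.0279) that held on 7 of 9 omissions of an array. Ms4a6b, Ms4a6d and Ms4a7 were the others. The B cell gene Ms4a1 (CD20) differed by 0.19, the mast cell gene Ms4a2 by -0.05 and Ms4a4d by -0.00, and none of these passed. Members of this family are near copies in part, so probe sets may share signal.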
